A study of Mus musculus with 9 samples.

Results

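The mouse serum amyloid A (SAA) family was followed across liver RNA-seq libraries of 3 Snd1 genotypes. It was taken by gene symbol as Saa1, Saa2, Saa3 and Saa4, which are 4 of the 19944 genes in the deposited table, and all 4 passed the filter for testing, a mean of at least 10 normalized counts. The livers came from male FVB mice aged 60 days and kept on normal chow. The groups were wild type (WT), a knockout of SND1 (KO) and a knock-in whose SND1 has a mutated Tudor domain (KI), with 3 libraries each, and the study asks what that domain contributes to transcription. Libraries are named by group and title number, such as KO_1. The deposited column headers carry a different number for most libraries, which is not used here. The deleted exons, the mutated residue and any sharing of litters are not given in the sources used here, so p-values measure only the spread between these 9 samples.

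SAA proteins are small lipid-binding proteins that travel in blood on high-density lipoprotein (HDL). In infection or injury, interleukin-6, interleukin-1 and tumour necrosis factor act on hepatocytes through STAT3, NF-kB and C/EBP factors, and Saa1 and Saa2 become part of the acute phase response, the liver's rapid change in secreted plasma proteins. Saa3 is also made by macrophages and fat cells, whereas Saa4 is known as the constitutive member, made in liver without such a stimulus. A lasting excess of SAA can deposit as AA amyloid.

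The material was whole liver, although the cell type is labelled hepatocyte. All 11 hepatocyte markers and all 16 macrophage markers on the lists used here were detected. Recovered read totals ran from 59678412 to 66384374 per library. The KO mean of Snd1 was 334 ± 96.2 normalized counts, against 7303 ± 1014 for WT and 6303 ± 1423 for KI (SD, 3 libraries per group). Transcripts of the exocrine pancreas made up 1.26% of reads for WT_3, 0.522% for KI_1 and 5.99% for KI_3, while the other 6 libraries had 0.00175% to 0.00525%. Calls of members, and of lists in KO against WT, that change without those 3 libraries are given both ways. Over all genes their omission, which leaves fewer libraries, took the calls in KO against WT from 1346 to 226 of 15078. List counts without them are to be read against that lower share.

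The 4 genes lie within one cluster on mouse chromosome 7 (GRCm38, GENCODE M21). From low to high coordinate they are Saa3 (ENSMUSG00000040026, chr7:46711998-46715700, minus strand), Saa4 (ENSMUSG00000040017, chr7:46727998-46732603, minus strand), Saa1 (ENSMUSG00000074115, chr7:46740497-46742980, minus strand) and Saa2 (ENSMUSG00000057465, chr7:46751790-46754313, plus strand). Saa1 and Saa2 are thus transcribed away from each other, from annotated starts 8.81 kb apart. The unprocessed pseudogene Saa-ps lies between Saa4 and Saa1, and its mean stayed under the filter in the table.

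The sequence just before each start is shown because 3 of the genes moved together and the fourth moved far less. Each is the 250 bases 5′ of the RefSeq start (GRCm38.p6), written 5′ to 3′ on the gene's own strand, and capitals mark matches to the C/EBP motif TTNNGCAA on either strand. The windows are chr7:46742981-46743230 (minus) for Saa1, chr7:46751583-46751832 (plus) for Saa2, chr7:46715677-46715926 (minus) for Saa3 and chr7:46732604-46732853 (minus) for Saa4.
Saa1: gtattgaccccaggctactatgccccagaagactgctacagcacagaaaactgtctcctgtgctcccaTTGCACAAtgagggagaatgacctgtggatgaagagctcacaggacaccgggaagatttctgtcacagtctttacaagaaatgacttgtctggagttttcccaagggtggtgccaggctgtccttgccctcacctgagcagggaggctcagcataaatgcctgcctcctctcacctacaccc
Saa2: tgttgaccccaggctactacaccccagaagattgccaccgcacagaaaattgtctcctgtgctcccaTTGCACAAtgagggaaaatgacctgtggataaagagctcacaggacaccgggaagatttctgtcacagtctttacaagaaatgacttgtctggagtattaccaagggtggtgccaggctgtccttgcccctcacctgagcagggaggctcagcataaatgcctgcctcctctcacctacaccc
Saa3: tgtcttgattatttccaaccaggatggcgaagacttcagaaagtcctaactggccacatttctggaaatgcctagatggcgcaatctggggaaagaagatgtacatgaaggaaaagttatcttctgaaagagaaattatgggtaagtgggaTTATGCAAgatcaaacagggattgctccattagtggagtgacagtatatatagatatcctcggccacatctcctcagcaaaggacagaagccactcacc
Saa4: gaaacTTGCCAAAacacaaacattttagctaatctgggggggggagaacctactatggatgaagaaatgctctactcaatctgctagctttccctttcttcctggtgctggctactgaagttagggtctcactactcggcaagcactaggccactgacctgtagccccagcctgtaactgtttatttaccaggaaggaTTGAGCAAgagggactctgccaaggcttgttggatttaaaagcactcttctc

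The Saa1 and Saa2 windows were near copies, identical in 238 of 251 alignment columns (94.8%). All other pairs shared between 42.6% and 48.9% of columns. Saa1 and Saa2 carried 1 C/EBP match each, at bases -182 to -175 and -183 to -176 before the start, Saa3 carried 1 at -99 to -92, and Saa4 carried 2, at -245 to -238 and -52 to -45. That motif occurred in 9.55% of the windows of the same length before 27025 mouse genes. The STAT motif TTCNNNGAA (7.18% of those windows), an NF-kB motif (7.01%) and the TATA motif TATAAA (13.0%) had 0 matches in the 4 windows. The AP-1 motif TGANTCA (6.87%) and CCAAT (34.5%) also had 0 matches. Such a 0 says only that the letters searched for are absent there. A match describes letters and not a bound site.

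Saa1 encodes one of the inducible SAA proteins carried on HDL. WT_1, WT_2 and WT_3 had 1841, 1867 and 1366 normalized counts of Saa1, KO_1, KO_2 and KO_3 had 399691, 810480 and 929704, and KI_1, KI_2 and KI_3 had 4378, 2921 and 5970. Every KO library stood at least 214-fold above the highest WT library, and every KI library was also above every WT library. The mean rose 422-fold, from 1691 ± 282 in WT to 713292 ± 278051 in KO, while KI averaged 4423 ± 1525 (SD, n = 3 each). On the log2 scale, with 1 added to each value, KO exceeded WT by 8.64 ± 0.33 (SE, limma adjusted p = 9.07e-07).

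Saa2, the near copy of Saa1 and also inducible, rose further. In the same order of libraries, Saa2 stood at 247, 264 and 266 normalized counts in WT livers, 353401, 737547 and 809849 in KO livers and 511, 358 and 739 in KI livers. The WT libraries were nearly equal, the KO libraries lay far above them, and the KI libraries lay just above. The KO mean of 633599 ± 245337 was 2447 times the WT mean of 259 ± 10.8, and KI averaged 536 ± 192 (SD, n = 3 each). The log2 difference between KO and WT was 11.16 ± 0.32 (SE, limma adjusted p = 8.44e-08), which was both the largest change and the smallest p among the 15238 genes tested.

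Saa3, the member also known from macrophages and fat, was the most variable in the knockouts. Saa3 stood at 173, 164 and 160 normalized counts in WT livers, 6357, 114488 and 210442 in KO livers and 215, 161 and 174 in KI livers. All KO libraries exceeded all others, but KO_3 held 33.1 times as much as KO_1, whereas WT and KI overlapped. WT averaged 166 ± 6.41, KO 110429 ± 102103 and KI 183 ± 28.2 (SD, n = 3 each), and KO exceeded WT by 8.33 ± 0.98 on the log2 scale (SE, limma adjusted p = 0.00136). Without KO_1 that difference was 9.86, and without KO_3 it was 7.34.

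Saa4, the constitutive member, began from a much higher level and changed least. Saa4 stood at 42414, 61291 and 24035 normalized counts in WT livers, 84370, 91817 and 88124 in KO livers and 57703, 51989 and 55548 in KI livers. The KO libraries were close to one another and all lay above WT and KI, whereas the KI libraries fell inside the wide WT range. The mean rose 2.07-fold, from 42580 ± 18629 in WT to 88104 ± 3723 in KO, while KI averaged 55080 ± 2886 (SD, n = 3 each). KO exceeded WT by 1.15 ± 0.29 on the log2 scale (SE, limma adjusted p = 0.0359). WT_3, the lowest WT library and one of those with pancreatic transcripts, carried much of that difference, which was 0.79 without WT_3 (adjusted p = 0.0853) and 0.79 without all 3 such libraries (adjusted p = 0.210).

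**Figure D1:**
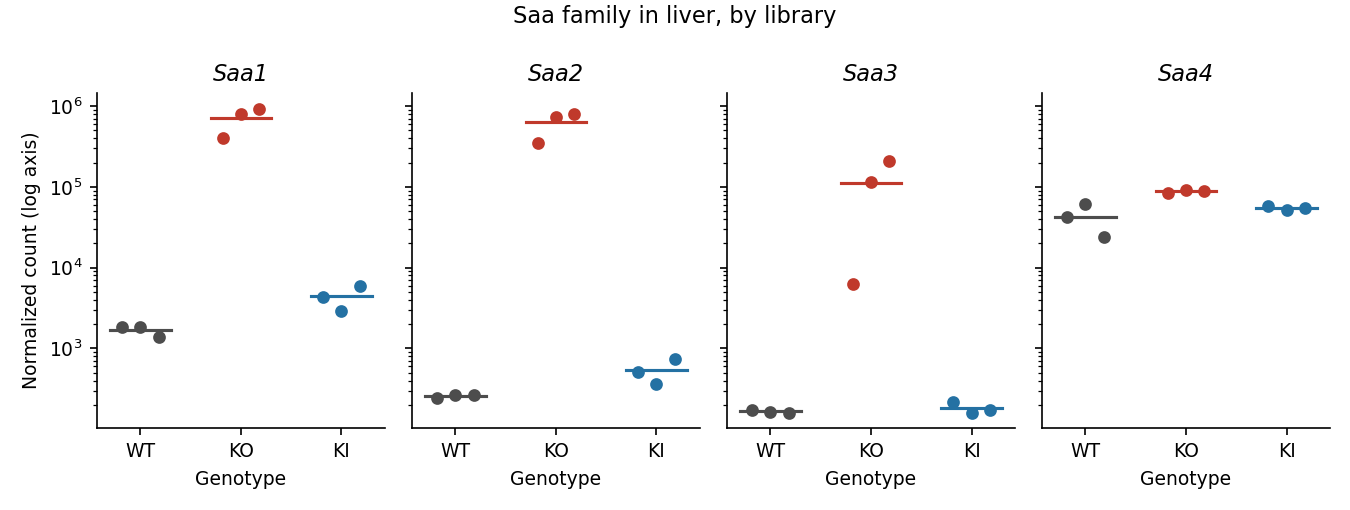
Normalized count of each Saa gene in each library on a log axis, by genotype, with a point per library and a horizontal line at the group mean. Saa1, Saa2 and Saa3 are far higher in the 3 KO libraries, with KO_1 the lowest at 399691, 353401 and 6357, while Saa4 stays between 24035 and 91817 in all 9.

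All 4 members were thus called higher in KO than in WT, where 4.63% of the 15238 genes tested were called higher and 4.2% lower (8.83% in all). For all 4 the KO libraries lay above the WT libraries without overlap, as they did for 15% of genes tested. The 95% intervals of the log2 difference were 7.91 to 9.38 for Saa1, 10.46 to 11.86 for Saa2, 6.14 to 10.52 for Saa3 and 0.51 to 1.79 for Saa4. The Saa4 interval lay wholly below the others, and Saa2 lay above Saa1. In these bulk samples more RNA per cell and more cells of a type cannot be told apart.

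For each member the estimated difference from WT was smaller in KI than in KO. None of the members was called in KI against WT by limma, which called 0.0263% of genes there (4 of 15238). At an unadjusted p under 0.05 it found 2 of the 4 members and 1769 genes in all. Saa1 was 1.34 ± 0.33 higher on the log2 scale (95% interval 0.60 to 2.08, limma adjusted p = 0.178) and Saa2 0.98 ± 0.32 higher (0.28 to 1.69, adjusted p = 0.261). Their KI and WT libraries did not overlap, as for 9.47% of genes tested, those with KI the higher. DESeq2 called both, with adjusted p = 0.00244 for Saa1 and 0.0427 for Saa2, and 372 of 14317 genes in all. The KI libraries with pancreatic transcripts were the higher ones for both genes, and without the 3 libraries that contain them, which leaves KI_2 alone, the log2 differences were 0.66 and 0.49. The limma differences for Saa3 (0.13, 95% interval -2.05 to 2.32, adjusted p = 0.974) and Saa4 (0.47, -0.17 to 1.11, adjusted p = 0.571) had intervals that spanned 0. The Saa3 interval rests on a spread shared by all 3 groups, in which the KO libraries varied most. Fitted with only the 2 groups, the Saa3 difference was again 0.13, with an SE of 0.20 in place of 0.98.

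Against KO, 3 of the 4 members were called lower in KI, in a comparison where limma called 4.85% of genes lower. Saa1 fell by 7.30, Saa2 fell by 10.18 and Saa3 fell by 8.19 on the log2 scale (limma adjusted p = 4.89e-06, 2.14e-07 and 0.00162). The Saa4 difference was -0.68 (95% interval -1.32 to -0.04, limma adjusted p = 0.177), with every KI library below every KO library, as for 14.1% of genes. Without the 3 libraries with pancreatic transcripts the Saa3 difference was -8.37 and was no longer called (limma adjusted p = 0.167). The comparisons with WT share the WT libraries, and those with KO share the KO libraries.

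**Figure D2:**
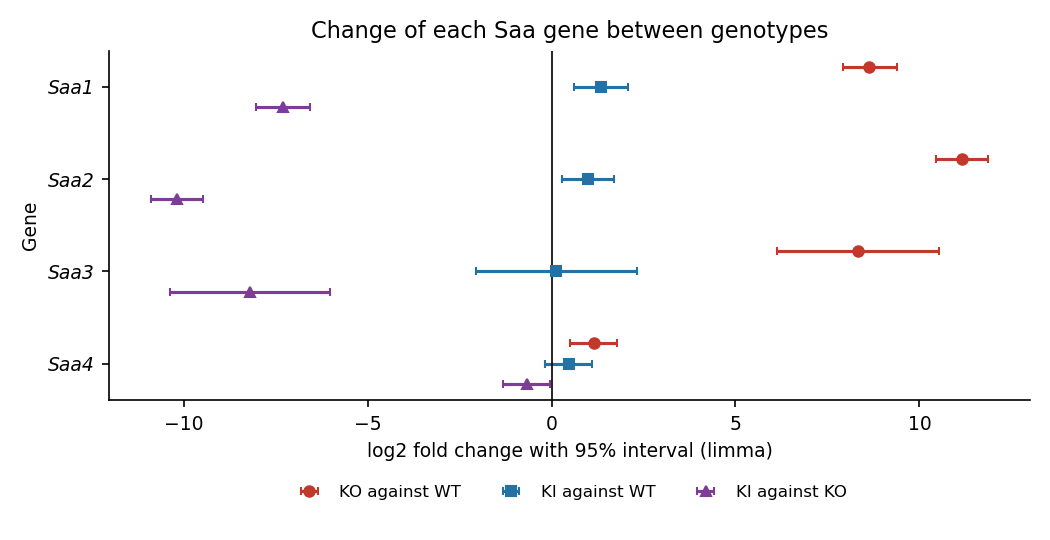
log2 fold change of each Saa gene in each of the 3 comparisons, with points at the limma estimate and bars at its 95% interval. Saa2 reaches 11.16 in KO against WT, while every KI against WT estimate lies between 0.13 and 1.34.

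Together the 4 genes took a far larger part of counted reads in knockout livers than in WT or KI livers. Their share of counted reads was 0.0736%, 0.105% and 0.0423% in WT, 1.32%, 2.79% and 3.71% in KO and 0.0980%, 0.0914% and 0.0883% in KI. In KO_3 that was 1 read in 26.9, and no KO library approached the others. The KO mean was 2.61% ± 1.21, against 0.0736% ± 0.0314 for WT and 0.0926% ± 0.00497 for KI (SD, n = 3 each). An exact permutation test over all assignments of the 9 libraries to 3 groups gave p = 0.0143. For pairs of groups the two-sided exact permutation p was 0.1 for KO against WT, the smallest that 3 against 3 allows, and 0.4 for KI against WT.

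The make-up of the family changed with its size. Saa4 supplied 94.9%, 96.4% and 93.1% of the family's reads in WT and 91.9%, 93.8% and 89.0% in KI, but 9.999%, 5.23% and 4.32% in KO. Saa1 and Saa2 together filled most of the remainder in KO, with Saa1 at 45.6% to 47.4% and Saa2 at 39.7% to 42.0%. The Saa3 part of the family's reads was 0.753%, 6.53% and 10.3% in the 3 KO libraries. By reads, the knockout therefore had a family dominated by the inducible pair, while WT and KI had one dominated by the constitutive gene. These shares are not scaled for length, and the Saa4 transcript is the longest in the family, so its part per length is smaller.

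**Figure D3:**
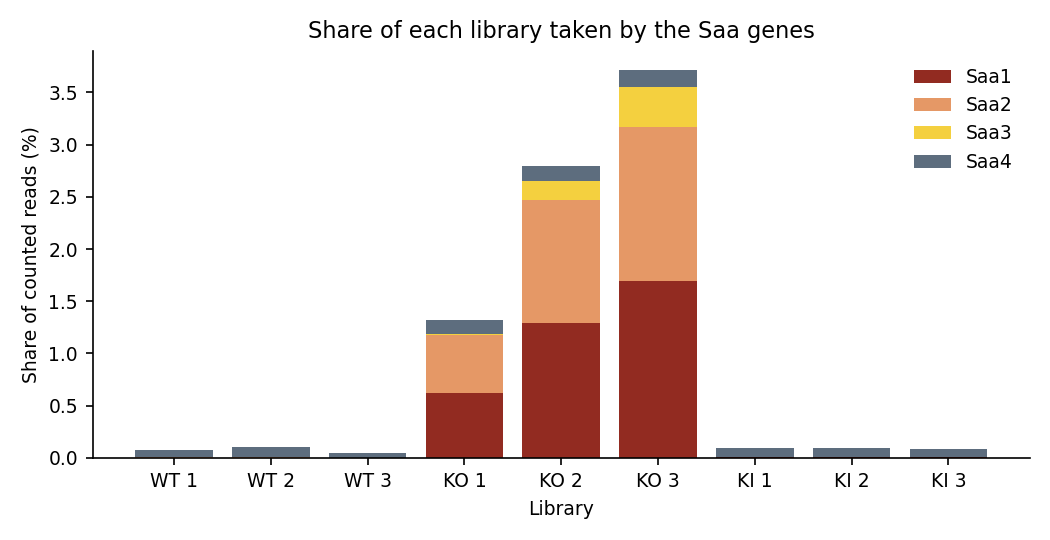
Share of counted reads taken by the Saa genes in each library, in percent, with each bar stacked by gene. The KO bars reach 1.32%, 2.79% and 3.71% and consist mainly of Saa1 and Saa2, and the other 6 bars stay at or under 0.105% and consist mainly of Saa4.

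Levels can be compared between genes only per length, here in RPKM, reads per kilobase of the principal transcript scaled to the library's read total. The transcripts used were 609 bases for Saa1, 606 for Saa2, 555 for Saa3 and 2094 for Saa4. In KO the order was Saa1 at 19749 ± 8872, Saa2 at 17609 ± 7775, Saa3 at 3457 ± 3368 and Saa4 at 698 ± 68.9 (SD, n = 3). Saa1 lay above Saa2 in each KO library, though their ranges overlapped, and the Saa3 libraries (179 to 6908) ranged across the Saa4 level. In WT the order per length was Saa4 at 335 ± 148, Saa1 at 45.7 ± 7.79, Saa2 at 7.03 ± 0.286 and Saa3 at 4.91 ± 0.200. In KI it was Saa4 at 405 ± 27.8, Saa1 at 110.0 ± 29.8, Saa2 at 13.4 ± 3.75 and Saa3 at 5.08 ± 0.847, with each neighbouring pair in WT and KI apart by more than the larger SD. Over all annotated exons, which include retained introns, Saa3 and Saa4 came to 736 and 698 RPKM in KO, so the distance between those genes depends on the transcript model.

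The inducible pair moved from unequal to nearly equal. Saa1 exceeded Saa2 by a ratio of normalized counts of 7.47, 7.07 and 5.13 in WT, 1.13, 1.10 and 1.15 in KO and 8.57, 8.16 and 8.08 in KI. The 3 groups did not overlap, and the KO values were the tightest. On the log2 scale the ratio averaged 0.17 ± 0.03 in KO, against 2.69 ± 0.29 for WT and 3.05 ± 0.05 for KI (SD, n = 3 each), with an exact permutation p of 0.00357 over the 3 groups and 0.1 for each pair of groups. The 2 genes' principal transcripts were identical in 572 of 609 alignment columns (93.9%). Of the 50-base stretches of Saa1, 13.2% also occurred in Saa2, and of the 100-base stretches 0%. Whether reads that fit both genes were dropped or assigned is not given in the sources used here, and its part in the ratio was not tested.

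The ratio of Saa3 to Saa1 differed widely between the knockout livers. The log2 ratio of Saa3 to Saa1 was -3.41, -3.51 and -3.09 in WT, -5.97, -2.82 and -2.14 in KO and -4.35, -4.18 and -5.10 in KI. KO_1 lay below every other library, while KO_2 and KO_3 lay above every other library. All KI libraries lay below all WT libraries, by a mean of -1.21 (exact permutation p = 0.1, the smallest possible). Over the 3 groups the exact permutation p was 0.496, and KO minus WT was -0.31 with KO_1 and 0.86 without it.

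**Figure D4:**
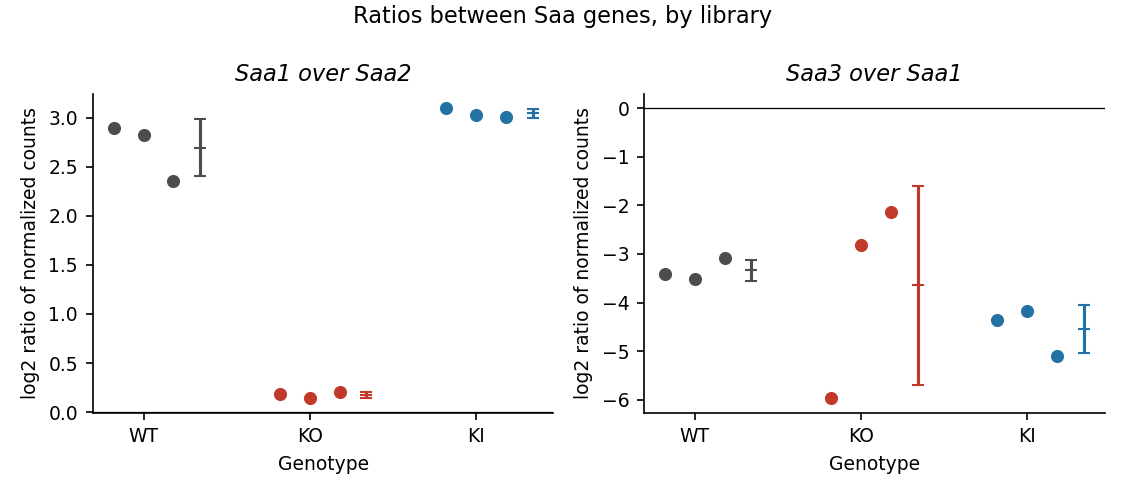
log2 ratio of normalized counts in each library, Saa1 over Saa2 at left and Saa3 over Saa1 at right, with points for libraries and a bar for the mean and SD of 3. Saa1 over Saa2 sits near 0.17 in KO against 2.69 in WT, and Saa3 over Saa1 spreads from -5.97 to -2.14 in KO.

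KO_1 was the lowest knockout library for the 3 inducible genes. It held 43.0% of the KO_3 level for Saa1, 43.6% for Saa2 and 3.02% for Saa3, but 95.7% for Saa4. Even so, KO_1 exceeded the highest WT library 214-fold for Saa1, 1327-fold for Saa2 and 36.8-fold for Saa3. The summed neutrophil markers (9 of 13 had a row) were 107 to 310 in WT, 130 to 469 in KI, and 225, 1074 and 1882 in KO_1, KO_2 and KO_3. The listed Camp, Ltf, Ly6g and Mpo had no row. The KO_1 sum lay inside the WT range. Outside the list, the neutrophil granule protease gene Prtn3 was 274 in KO_1 against 0.96 to 8.67 in WT. It was picked after its values were seen. Of 7 neutrophil markers tested 1 rose, the collagenase Mmp8 (log2 fold change 4.38, limma adjusted p = 0.0418), against 4.63% of all genes tested. As reported 3 had an unadjusted limma p under 0.05, and DESeq2 called 3. Without the libraries with pancreatic transcripts 0 of 7 were called, against 226 of 15078 genes.

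The summed macrophage markers (16 of 16 present) were 19701 to 36672 in WT, 28217 to 57563 in KO and 24449 to 41608 in KI, with KO_3 the highest. Of 16, 3 rose in KO by limma, namely Mpeg1 (1.27, adjusted p = 0.00276), Marco (1.75, adjusted p = 0.0364) and Cd163 (1.24, adjusted p = 0.0436), or 1 without the libraries with pancreatic transcripts. The summed fat-cell markers (5 of 8 had a row) were 1337 to 1629 in WT, 1421 to 2172 in KO and 1186 to 1497 in KI. Of 3 tested, limma and edgeR called 0 in KO against WT, with a median log2 difference of 0.93, 2 were at an unadjusted limma p under 0.05, and DESeq2 called 1 higher and 1 lower. The defining fat-cell genes Adipoq and Plin1 stayed under 5 normalized counts in every library. None of the 11 hepatocyte markers was called by limma or edgeR (3 had an unadjusted p under 0.05, and DESeq2 called 2 lower), and their summed level spanned 2981900 to 5309050 in KO and 4698540 to 6155040 in WT. The summed gut epithelium markers (7 of 10 had a row) were 2520 to 3646 in WT, 2059 to 4432 in KO and 2743 to 4575 in KI. Of 4 tested, limma and edgeR called 0 in KO against WT, with a median of 2.08, 1 was at an unadjusted limma p under 0.05, and DESeq2 called 1. Among them Reg3g was at 0 in WT and KO_1 and at 64.8 and 104 in KO_2 and KO_3 (limma adjusted p = 0.143), and Vil1, which was not tested, did not exceed 7.67 in any library. The bile duct marker Sox9 rose from 36.4 ± 10.8 to 101 ± 3.44 (1.49, adjusted p = 0.0249), the 1 called of 5 tested, and 0 of 5 were called without the libraries with pancreatic transcripts, where the list median went from 0.34 to -0.10. Over all genes tested limma called 4.63% higher and 4.2% lower in KO against WT. Without the libraries with pancreatic transcripts it called 138 higher and 88 lower of 15078 genes. The part of these other cells in the Saa values was not tested.

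Among the cytokines that induce SAA, Il6 and Tnf did not exceed 10.9 normalized counts in any library, and no gene was called. None of the 5 tested of 11 listed was called by limma, edgeR or DESeq2, in a comparison where limma called 8.83% of all genes tested. With 5 genes, 0 calls is near that share. None had an unadjusted p under 0.05 in limma. The list had a median log2 difference between KO and WT of -0.08 against 0.00 over all genes. Il6 averaged 2.56 ± 2.93 normalized counts in WT and 0.603 ± 1.04 in KO, and Tnf 2.003 ± 3.47 and 4.30 ± 5.77, and both were below the filter. Il1b, which encodes interleukin-1 beta, was 14.2, 38.5 and 382 in KO_1, KO_2 and KO_3 against 45.3 to 86.1 in WT (limma adjusted p = 0.934). KO_1 thus held less Il1b than any WT library.

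Of 14 cytokine receptors limma called 5 higher in KO and none lower, against 4.63% and 4.2% of all genes tested. The list median was 0.61, and DESeq2 called 7 higher and 1 lower. Il1r1, the interleukin-1 receptor, rose from 3687 ± 1733 to 18232 ± 4950 normalized counts (log2 fold change 2.39, limma adjusted p = 0.00299). Il22ra1, through which interleukin-22 acts on hepatocytes, rose from 186 ± 35.4 to 528 ± 49.9 (1.51, adjusted p = 0.00472). The tumour necrosis factor receptors Tnfrsf1b and Tnfrsf1a and the shared interleukin-6 signalling subunit Il6st rose by 0.76, 0.69 and 0.60 (adjusted p = 0.0125, 0.0154 and 0.0401). Il6ra, the binding subunit for interleukin-6, was 4493 ± 1368 in WT and 5653 ± 1622 in KO (adjusted p = 0.484), and Osmr, the oncostatin M receptor, 161 ± 37.9 and 601 ± 350 (adjusted p = 0.0707). Il1rap and Lifr, also on this list, were lower in KO without a limma call. Il1rap went from 11404 ± 317 to 7713 ± 2261 (-0.61, limma adjusted p = 0.0835). Lifr went from 23389 ± 3883 to 12964 ± 8502 (-1.04, limma adjusted p = 0.111). Without the 3 libraries with pancreatic transcripts 2 of the 14 were called higher, against 138 of 15078 genes, with a list median of 0.59.

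Of 23 signal transducers and inhibitors tested 4 rose and 1 fell, against 4.63% and 4.2% of all genes tested. The list median was 0.17. Stat3, the factor that carries the interleukin-6 signal, rose from 4756 ± 754 to 11199 ± 2773 normalized counts (1.22, limma adjusted p = 0.00534). Socs3, its feedback inhibitor, was 172, 113 and 278 in WT and 400.6, 2274 and 2192 in KO (2.84, adjusted p = 0.0181), with KO_1 again the lowest. Sigirr and Zc3h12a, which restrain interleukin-1 signalling and inflammatory messenger RNA, rose by 0.73 and 1.0, and Pias3, an inhibitor of STAT3, fell by 0.85 (adjusted p = 0.0237, 0.0429 and 0.0190). None of the 23 was called without the libraries with pancreatic transcripts, where the list median was again 0.17. Over all genes 226 of 15078 were called there, 138 higher and 88 lower.

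Of 21 transcription factors of Saa promoters and their partners 2 rose and none fell, against 4.63% and 4.2% of all genes tested. The list median was 0.05. Nfkbiz and Bcl3, nuclear partners of NF-kB, rose from 224 ± 49.3 to 626 ± 182 and from 602 ± 71.7 to 1287 ± 465 (log2 fold changes 1.45 and 1.03, limma adjusted p = 0.00827 and 0.0332). Cebpb, a C/EBP factor of acute phase genes, was 597 ± 232 in WT and 551 ± 125 in KO (adjusted p = 0.936). Cebpd was 105 ± 24.4 and 173 ± 67.8 (adjusted p = 0.257), and Rela, a subunit of NF-kB, 1743 ± 122 and 2054 ± 122 (adjusted p = 0.198). Neither Nfkbiz nor Bcl3 was called without the libraries with pancreatic transcripts, where the list median was 0.10 and 226 of 15078 genes were called.

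Other acute phase genes accompanied the Saa genes. Of 26 others that rise in the acute phase 21 rose in KO and none fell, against 4.63% and 4.2% of all genes tested. The list median was 2.76. Orm2, an alpha-1-acid glycoprotein, rose from 289 ± 37.6 to 19260 ± 8479 normalized counts (5.94, limma adjusted p = 8.82e-06), and Lcn2, which binds bacterial siderophores, from 245 ± 108 to 138309 ± 87664 (8.92, adjusted p = 3.06e-05). Lbp, the lipopolysaccharide-binding protein, and Hp, haptoglobin, rose by 2.80 and 3.61 (adjusted p = 0.000275 and 0.000453). The count of 21 was 25 by DESeq2, 23 by edgeR and 10 without the libraries with pancreatic transcripts, where the median was 2.75. In KI against WT 0 of the 26 were called by limma, edgeR or DESeq2, with 2 at an unadjusted limma p under 0.05. Limma called 0.0263% of all genes tested there. Against KO 23 of the 26 fell in KI, where 4.85% of all genes tested were called lower. The list median was -2.70 as reported. It was -2.52 without the libraries with pancreatic transcripts, which leaves KI_2 alone in KI. Of 15 genes that fall in the acute phase, 2 fell in KO, Serpina6 and Igf1 (log2 fold changes -2.10 and -0.66, limma adjusted p = 0.00705 and 0.0234), and 1 rose, Apoa4, an apolipoprotein described with HDL. None of the 15 was called without the libraries with pancreatic transcripts, and DESeq2 called 3 lower and 3 higher. Over all genes tested limma called 4.2% lower and 4.63% higher. Without those libraries it called 88 lower and 138 higher of 15078 genes in KO against WT.

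Of 17 genes for HDL proteins and their remodelling, 3 rose and 3 fell in KO, against 4.63% and 4.2% of all genes tested. The list median was 0.03. Apoa2, a main HDL protein, fell from 169999 ± 7779 to 55637 ± 27749 normalized counts (log2 fold change -1.72, limma adjusted p = 0.00953), Pon1, the HDL paraoxonase, fell by 1.67 (adjusted p = 0.00195) and Lipc, hepatic lipase, fell by 1.62 (adjusted p = 0.0247). Apoa4, an HDL apolipoprotein, Lcat, which esterifies HDL cholesterol, and Scarb1, the HDL receptor, rose by 2.29, 0.71 and 0.93 (adjusted p = 0.00517, 0.0225 and 0.00973). Apoa1, the main HDL protein that SAA can displace, was 327805 ± 5735 in WT and 330884 ± 120225 in KO (adjusted p = 0.942). Without the libraries with pancreatic transcripts 0 were called higher and 1 lower, with a list median of 0.06. In that setting 138 of 15078 genes were called higher and 88 lower.

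Scarb1 was also the only called gene among 7 tested receptors for SAA, in a comparison where 8.83% of all genes tested were called. Fpr2, the formyl peptide receptor through which SAA acts on leukocytes, was 63.4 ± 33.1 in WT and 123 ± 89.7 in KO (limma adjusted p = 0.380). Of 9 genes for SAA breakdown or amyloid partners 3 rose and none fell, against 4.63% and 4.2% of all genes tested. Apcs, serum amyloid P component, which binds amyloid and is itself an acute phase protein in mice, rose from 5671 ± 1113 to 91656 ± 56463 (3.75, adjusted p = 0.00162). Clu, a chaperone, and Ctsl, a lysosomal protease, rose by 0.94 and 0.61 (adjusted p = 0.0165 and 0.0316). Without the libraries with pancreatic transcripts 1 of the 9 and none of the SAA receptors was called, with medians of 0.35 and 0.52 against 0.38 and 0.45 as reported. In that setting 226 of 15078 genes were called. In KI against WT limma called 0 genes of these lists, and 4 of 15238 genes in all. At an unadjusted limma p under 0.05 were 2 receptors, 2 transducers, 3 transcription factors, 2 HDL genes and 2 breakdown genes. DESeq2 called 1 of the HDL genes there, and edgeR called 0.

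Genes beside the cluster differed far less between KO and WT than Saa1, Saa2 and Saa3, and Ldha differed about as much as Saa4. Within 500 kb of the Saa1 start 16 other genes had a row and 10 were tested, with log2 differences between KO and WT from -0.34 to 1.17 and a median of 0.09. Ldha, lactate dehydrogenase A, rose from 27425 ± 4266 to 62134 ± 11741 normalized counts (1.17, limma adjusted p = 0.00593), and Spty2d1, a histone chaperone, from 909 ± 56.2 to 1444 ± 74.2 (0.67, adjusted p = 0.00531). The nearest tested gene, Saal1, whose start is 32.3 kb from that of Saa1, was 235 ± 2.32 in WT and 279 ± 23.4 in KO (adjusted p = 0.342). Without the libraries with pancreatic transcripts neither Ldha nor Spty2d1 was called, and 226 of 15078 genes were called in all.

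**Figure D5:**
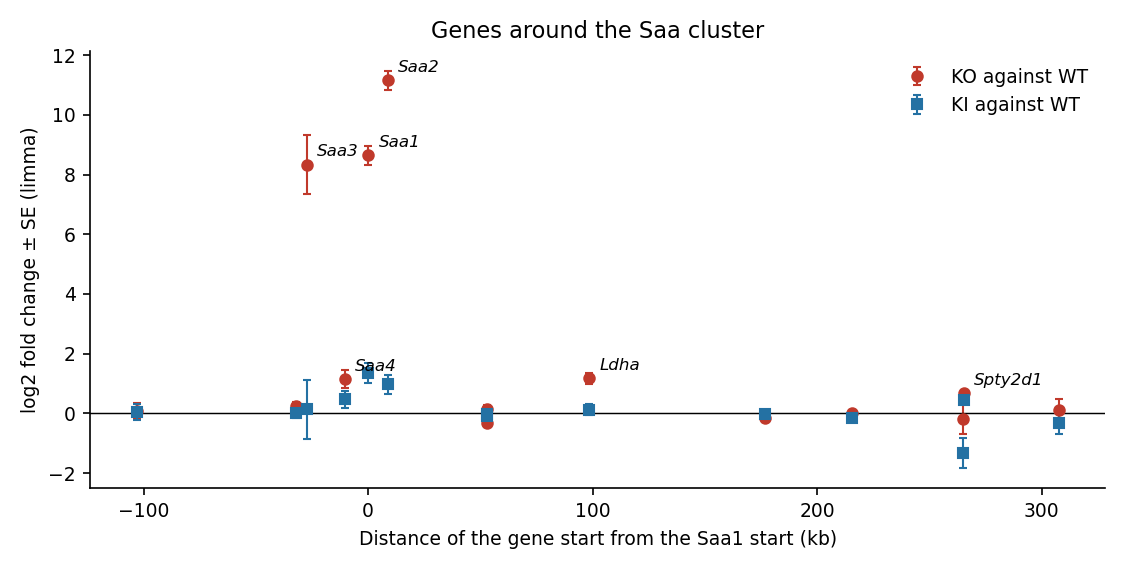
log2 fold change with SE (limma) of each tested gene within 500 kb of Saa1, against the distance of its start from the Saa1 start in kb, for KO and KI against WT. Saa1, Saa2 and Saa3 stand between 8.33 and 11.16 in KO against WT, where all other tested genes, Saa4 among them, lie between -0.34 and 1.17.

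Outside the family, Lcn2 had the pattern most like each of the 3 inducible members. Likeness was measured as the root mean square difference, over the 9 libraries, of log2 values set relative to their WT mean, over 12397 tested genes averaging 50 normalized counts or more. Lcn2 differed by 1.0 from Saa1, 1.55 from Saa2 and 0.85 from Saa3, and its normalized count was 248, 352 and 135 in WT, 38256, 201637 and 175035 in KO and 192, 199 and 211 in KI. A2m, a protease inhibitor that was under 10 in each WT library, came within 1.63 of Saa1, 1.98 of Saa2 and 1.67 of Saa3, with 200, 7844 and 8476 in KO. The remaining named genes were Trat1, Prtn3 and Orm2 for Saa1 (1.39, 1.53 and 1.68), Atp6v0a4, Trat1 and Prtn3 for Saa2 (2.73, 2.75 and 2.90) and Orm2, Trat1 and Atp6v0a4 for Saa3 (1.66, 1.71 and 1.71). In KO, Prtn3 was 274, 482 and 452, Trat1 83.2, 280 and 424, and Atp6v0a4 78.1, 547 and 426. A2m, Trat1, Prtn3 and Atp6v0a4 averaged 3.28, 1.61, 5.21 and 1.28 in WT and 24.5, 8.27, 12.8 and 10.4 in KI. They passed the filter of 50 only through KO, so their place in this ranking rests on the group where they were high.

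Saa4 was unlike its relatives by this measure, at 4.34 to 5.81 from each of them, while Saa1 and Saa3 differed by 1.23 and Saa1 and Saa2 by 1.47. The genes nearest to Saa4 were Srrm4 (0.21), the nucleoporin gene Nup98 (0.25), Zswim3 (0.26), Arhgap44 (0.27) and the sialyltransferase gene St3gal2 (0.29). Nup98 was 921, 1540 and 724 in WT, 2024, 2257 and 1790 in KO and 1064, 1152 and 1140 in KI. As for Saa4, WT_3 was its lowest library and WT_2 the highest of the WT libraries.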

How the data were processed

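Liver RNA was made into stranded libraries, per the labels. The authors deposited 1 table of signal values, called normalized counts, for 19944 genes in 9 libraries. Per the submitters' processing notes it came from TopHat2, Bowtie2, GRCm38 and featureCounts. The annotation, strand setting and treatment of shared reads are not given in the sources used here. The values were whole reads divided by size factors of 0.8921 to 1.1051 (at least 99.995% whole within 0.0051). Genes with a mean of at least 10 (15238) were tested as log2(value + 1) with limma 3.58.1 in R 4.3.3, with a variance trend, 9 libraries, 3 group means, 6 residual degrees of freedom and Benjamini-Hochberg adjustment over all genes tested. Fold changes on this scale understate those of low genes. An adjusted p under 0.05 was called, with no minimum fold. edgeR 4.0.16 and DESeq2 1.42.0 on recovered reads were alternatives. Procedures were tested on simulated data.

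Members, gene lists and tests were chosen with earlier results of these data known. The text names the members, Snd1, the 5 genes most like each member (predicted Gm and Rik genes left out), and of each list the called genes, at most the 4 with the smallest p, with cytokines, receptors and factors. Il1b, Il6ra, Osmr, Fpr2, Cebpb, Cebpd, Rela and Apoa1 were picked for their roles. Il1rap, Lifr, Prtn3, Adipoq, Plin1, Reg3g, Vil1, Saal1, Lipc and Ctsl were picked after their values were seen. GENCODE M21 matched 19242 of 19944 identifiers (96.5%). RefSeq gave the sequences of all 4 members. No library duplicated another: the most similar replicates, WT_1 and WT_2, had a chi-square of 68.1 for each degree of freedom.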

Additional observations from a re-analysis of the deposited data

How the results depend on the processing

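Saa1, Saa2 and Saa3 kept their call in KO against WT under all 21 alternatives, with log2 differences of 8.41 to 9.02, 10.94 to 11.54 and 7.34 to 9.86. The Saa4 call held under 11 of 21 and was lost with edgeR (1.06, adjusted p = 0.0542), without the 3 libraries with pancreatic transcripts (0.79, 0.210), with the pancreas share as covariate (0.95, 0.0955), with only the 2 groups (1.15, 0.0827) and without any one of WT_1, WT_3, KO_2, KO_3, KI_1 or KI_3 (all single omissions 0.79 to 1.46, adjusted p 0.0182 to 0.118). The cause was not tested. In KI against WT DESeq2 called Saa1 (1.39) and Saa2 (1.05), and without the pancreatic libraries Saa3 turned to -0.06, Saa3 in KI against KO was -8.37 and not called, and the log2 ratio of Saa3 to Saa1 in KI against WT was -0.72. Saa3 over Saa1 in KO against WT ran from -1.06 to 0.86 on leaving out single libraries and reversed to 0.86 without KO_1. Scaling to the total without acute phase, Saa and pancreas genes moved the median of all genes by 0.25 in KO against WT and -0.31 in KI against KO, and Saa4 in KI against KO was then called (-1.0). Genes called in KO against WT, KI against WT and KI against KO (1346, 4 and 1287) became 2295, 372 and 2287 with DESeq2, 226, 0 and 13 without the pancreatic libraries, 750, 0 and 137 with the covariate and 874, 31 and 616 with only the 2 groups. Leaving out single libraries gave 501 (without KO_2) to 2509 (without KO_1), 0 to 35 (without KO_1) and 400 (without KO_2) to 2299 (without KO_1). The 4 calls of KI against WT became 8 without a filter, 7 at a mean of at least 50, 1 with edgeR, 7 scaled to the library total and 7 scaled to the total without those genes. That last scaling gave 1433 higher and 363 lower in KO against WT (706 and 640 as reported) and 2839 in KI against KO, 321 higher and 2518 lower. Scaling to the library total gave 363 higher and 909 lower there, against 548 and 739. With a replicate block by title number, calls were 1551, 3 and 1500, and no call of a member changed. Same-numbered libraries correlated at -0.136 to 0.568 in their deviations, and differently numbered ones at -0.622 to 0.319. The highest values were for WT_3 with KI_3 (0.568), which both hold pancreatic transcripts, and WT_2 with KI_2 (0.531). Whether the title numbers pair the samples is therefore not settled, and a block by header number was not tested. Depth limits Saa2 and Saa3 most, whose WT and KI values rest on 155 to 659 reads per library.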
